A study of Mus musculus with 12 samples.

Results

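The TRPC, calcineurin and NFAT pathway was followed through 9 genes of the deposited table of 22794, taken by name for their role in the pathway, with earlier results of these data already known. They were the channel genes Trpc1 and Trpc6, the calcineurin catalytic subunits Ppp3ca and Ppp3cb, the calcineurin regulator Rcan1, and the transcription factors Nfatc1, Nfatc2, Nfatc3 and Nfatc4. Cardiomyocytes were isolated from the hearts of wild-type C57BL6 mice and their polyA RNA was sequenced in 12 libraries, 3 in each of 4 groups. The groups were 5/6 nephrectomy with JV101 (NX JV101), 5/6 nephrectomy with saline (NX saline), sham surgery with JV101 (sham JV101) and sham surgery with saline (sham saline). All mice were killed 16 weeks after surgery; their age is not given, and the labels do not say what JV101 contains or when it was injected. The series title speaks of telomere recapping by gene therapy in cardio-renal syndrome. The labels number the replicates but do not say whether each is a separate animal, so every p-value rests on the spread among these libraries alone, which may be technical.

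TRPC channels are cation channels of the plasma membrane that open downstream of Gq-coupled receptors and stretch, and calcium that enters through them can activate calmodulin. Calcium-bound calmodulin activates calcineurin, a phosphatase made of a catalytic and a regulatory subunit, which removes phosphates from cytoplasmic NFAT proteins and lets them enter the nucleus. In the heart this route is known for its part in pathological hypertrophy, and Trpc6 has been studied as a target of the kidney-derived hormone Klotho in uraemic heart disease. The switch itself acts on proteins, so mRNA levels describe how much message for each component was present and not how active the pathway was.

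Rcan1 is both a feedback inhibitor of calcineurin and one of the best known NFAT target genes in the heart, through a start site inside the gene that NFAT controls; a second start lies farther upstream. The 250 bases before each of these starts are shown because the counts of the gene add up the transcripts from both. They are given 5′ to 3′ in the direction of the gene, which runs on the minus strand, from RefSeq on GRCm38.p6, a build older than the one the submitters' processing notes name for the data. Capitals mark the NFAT core letters GGAAA or, on the other strand, TTTCC.

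Rcan1 upstream start, chr16:92466170-92466419: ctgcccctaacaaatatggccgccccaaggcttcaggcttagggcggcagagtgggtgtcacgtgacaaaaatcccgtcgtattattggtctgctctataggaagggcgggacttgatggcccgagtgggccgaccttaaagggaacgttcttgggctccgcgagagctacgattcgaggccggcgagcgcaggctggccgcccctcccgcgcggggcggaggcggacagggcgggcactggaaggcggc
Rcan1 inner start, chr16:92400079-92400328: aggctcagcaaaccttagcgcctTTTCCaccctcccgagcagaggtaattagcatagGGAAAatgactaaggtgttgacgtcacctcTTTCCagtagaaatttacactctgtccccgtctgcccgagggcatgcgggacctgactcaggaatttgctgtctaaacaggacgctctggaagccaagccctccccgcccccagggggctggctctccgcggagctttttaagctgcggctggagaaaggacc

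The window of the inner start held 3 cores, 1 as GGAAA and 2 as TTTCC, and the window of the upstream start held 0. Of 32851 RefSeq mouse promoter windows of the same length, 55.6% held at least 1 core and 6.39% held 3 or more, so the 5 letters are common. The upstream window was richer in CpG, with 24 against 11 in the inner window. Of the 9 genes 7 had at least 1 window in the RefSeq table, and 10 windows were searched. Ppp3cb and Nfatc4 held 3 cores each, Nfatc2 held 3 before one start and 1 before another, and Nfatc3 held 1 and 0. Trpc1 and Trpc6 held 0, which says only that these letters are not in those windows.

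The libraries held 26.4 to 33.8 M counts, of which 36.7% to 69.0% came from 13 mitochondrially encoded protein genes, leaving 8.38 to 20.7 M counts of nuclear genes. The markers of the labelled cell type were in place: all 8 ventricular cardiomyocyte markers were present in every library, with summed levels of 27107 to 52562 CPM. Markers of other heart cells were present as well, and the 8 fibroblast markers, none of them at 0 in any library, summed to 207 to 1136 CPM. CPM, counts scaled to a common library size with TMM factors, were computed here and serve to compare libraries. The deposited FPKM, which are per length, serve to compare genes.

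Rcan1 had the most message per length of the 9 genes, with 27.7 ± 9.10 FPKM (mean ± SD, n = 12 libraries, as for the other FPKM means). Ppp3cb followed with 9.42 ± 2.03 FPKM and Ppp3ca with 4.05 ± 1.10 FPKM. Among the NFAT genes Nfatc3 averaged 2.15 ± 0.466, Nfatc1 2.03 ± 0.656, Nfatc2 1.10 ± 0.376 and Nfatc4 0.756 ± 0.458 FPKM. Trpc1 lay between Nfatc2 and Nfatc4 with 0.899 ± 0.288 FPKM, and Trpc6 came last with 0.0135 ± 0.0186 FPKM. The steps from Rcan1 to Ppp3cb, Ppp3ca and Nfatc3 held within each of the 12 libraries, as did those from Nfatc1 to Nfatc2 and from Nfatc4 to Trpc6. Neighbours that changed places between libraries were Nfatc3 and Nfatc1, Nfatc2 and Trpc1, and Trpc1 and Nfatc4, where the first was higher in 8 of 12 libraries each.

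**Figure D1:**
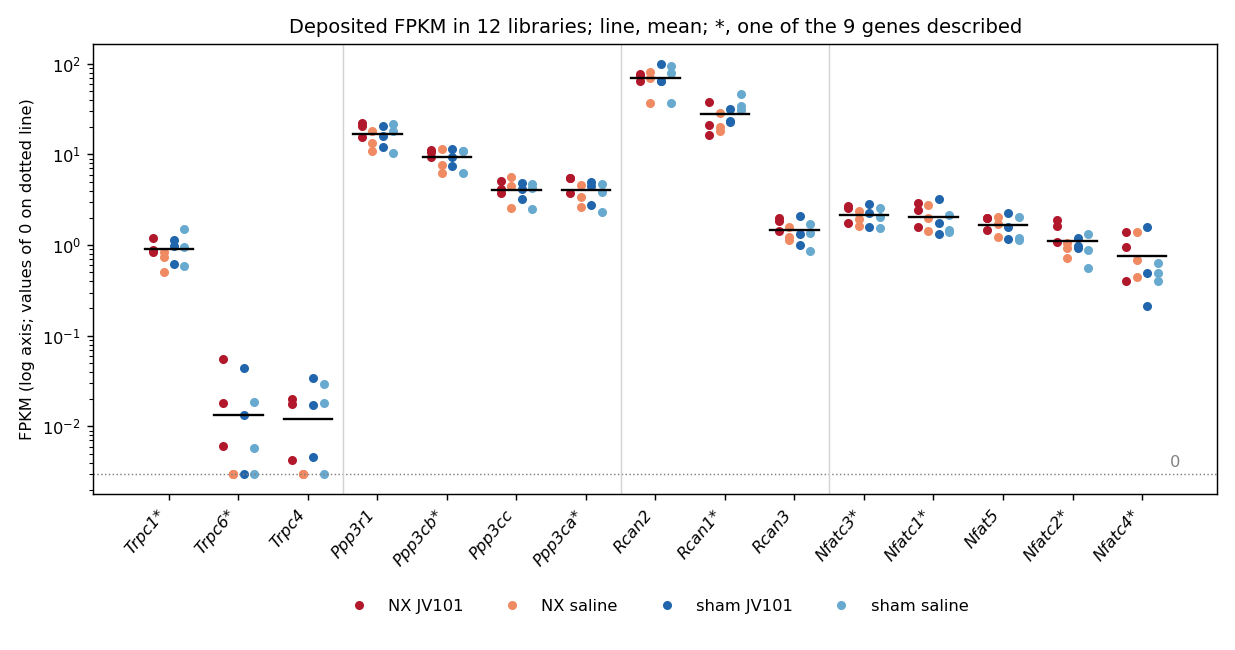
Deposited FPKM (log axis, values of 0 on the dotted line) of the 9 genes, marked with an asterisk, and of 6 relatives; each point is 1 of the 12 libraries, coloured by group, and the black line is the mean. Rcan2 and Rcan1 lie highest at 69.9 and 27.7 FPKM, and Trpc6 and Trpc4 lie lowest at 0.0135 and 0.0121 FPKM.

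Close relatives outside the 9 genes changed how the calcineurin and Rcan families looked. Ppp3cc, the third catalytic subunit, stood at 4.10 ± 0.951 FPKM and exceeded Ppp3ca in 6 of 12 libraries. Rcan2, the sister gene of Rcan1, averaged 69.9 ± 19.0 FPKM and was above Rcan1 in all 12. Ppp3r1, the regulatory subunit that the catalytic subunits need, averaged 16.6 ± 4.24 FPKM, and its testis-type relative Ppp3r2 had 1 count at most in any library.

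Expressed as shares of the summed FPKM of a family, Ppp3cb made up 53.7% of the catalytic subunits, Ppp3cc 23.4% and Ppp3ca 22.9% (means of 12 libraries). Such shares rest on the gene lengths behind the deposited FPKM, 4.81 kb for Ppp3cb and 9.91 kb for Ppp3ca. Before scaling by length these 2 genes averaged 44.5 and 38.8 CPM. The gene models are not given, so whether these lengths match the transcripts present cannot be told. Nfatc3 made up 36.3% of the 4 NFAT genes, Nfatc1 33.5%, Nfatc2 18.4% and Nfatc4 11.8%. The share of Nfatc2 was 22.0 ± 2.83% in NX JV101, 15.9 ± 3.30% in NX saline, 18.3 ± 6.06% in sham JV101 and 17.5 ± 2.90% in sham saline cells (SD, n = 3 each). These 4 ranges overlapped.

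**Figure D2:**
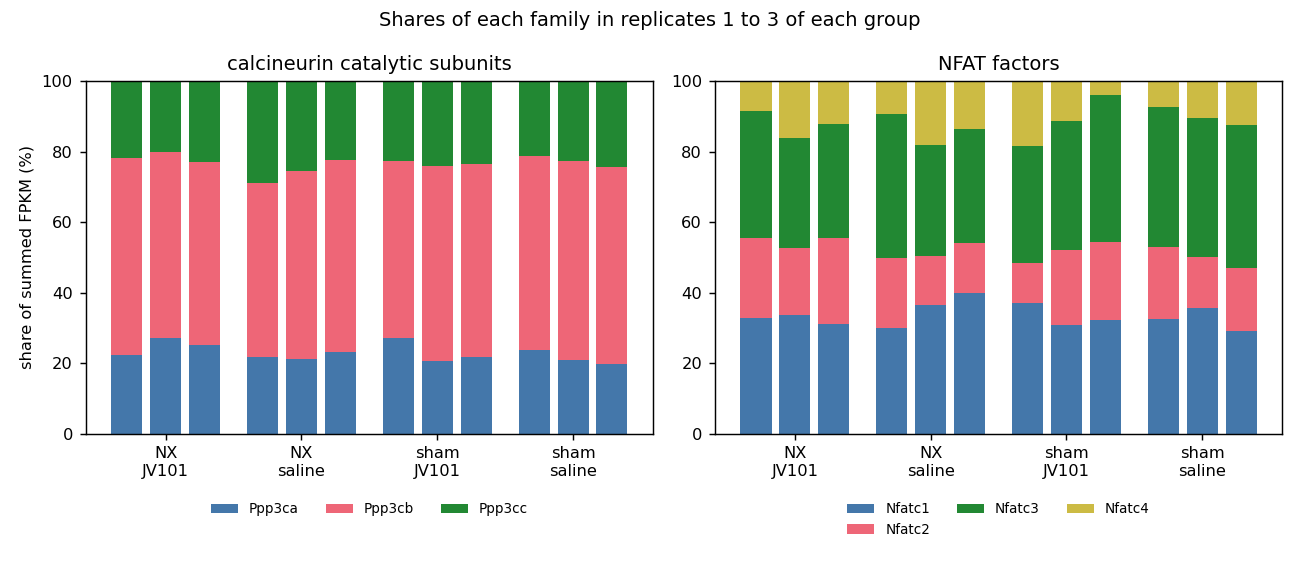
Share of the summed FPKM of each family (per cent, axis from 0) in replicates 1 to 3 of each group for the calcineurin catalytic subunits and the 4 NFAT genes. The calcineurin bars look alike in all libraries, with Ppp3cb at 49.3% to 56.3%, while the share of Nfatc4 among the NFAT genes runs from 3.98% to 18.3%.

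The question for each gene was whether its message differed after nephrectomy, with JV101, or with the combination. Of the 9 genes 8 passed the filter on low counts and entered the edgeR quasi-likelihood test with 14412 genes, and Trpc6 did not. In none of the 7 comparisons did a member pass an adjusted p of 0.05 (edgeR, Benjamini-Hochberg over all genes tested), where 0% of all genes passed in each. At an unadjusted p under 0.05 edgeR called 0 of 8 members in NX saline against sham saline cells, where 3.64% of all genes were called, and 1 of 8, Nfatc2, in NX JV101 against NX saline cells, where 2.39% were. It called 0 of 8 in sham JV101 against sham saline cells (1.7% of all genes), in NX JV101 against sham JV101 cells (2.07%), in the effect of nephrectomy averaged over injections (4.36%), in the effect of JV101 averaged over surgeries (2.28%) and in the interaction (1.78%). DESeq2 and limma on log2 FPKM also called 0 of 8 members after adjustment in every comparison. These comparisons share libraries: NX saline against sham saline cells and NX JV101 against NX saline cells both use the NX saline libraries, for example.

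**Figure D3:**
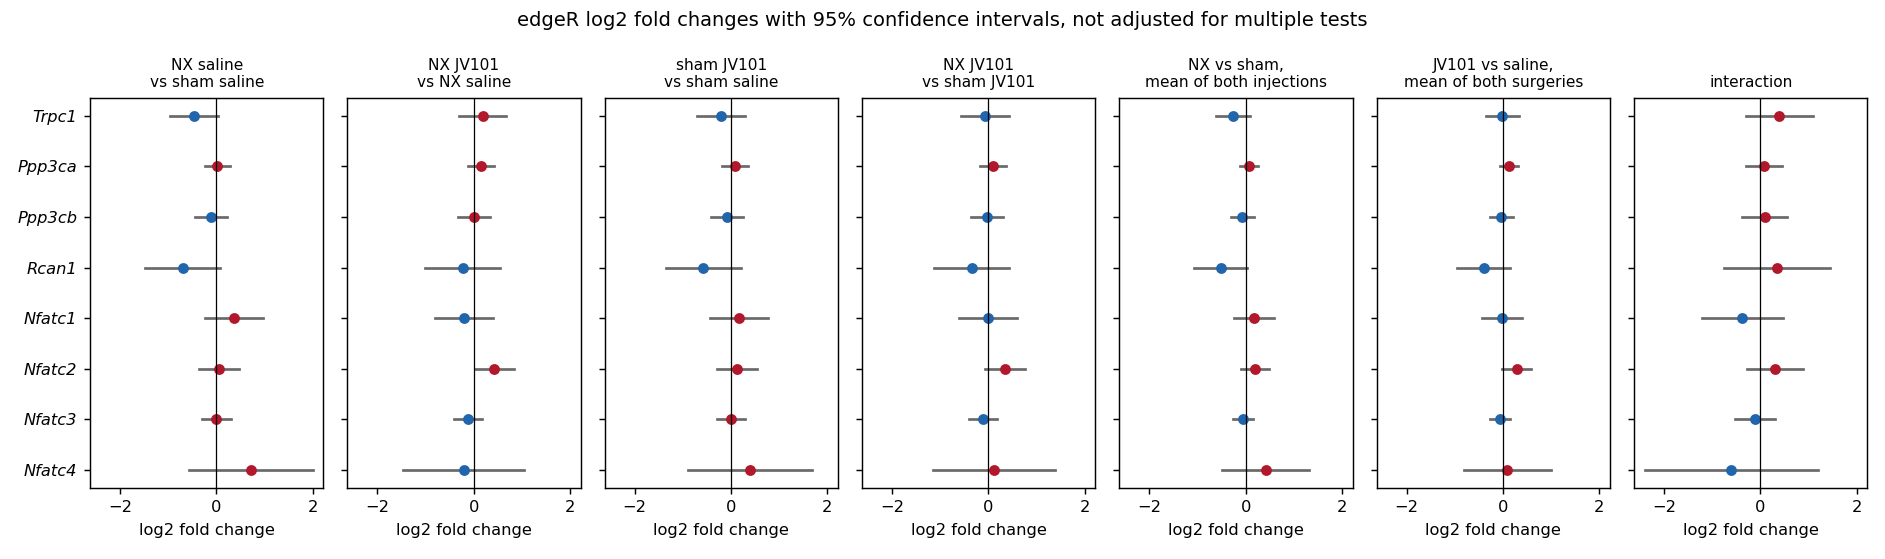
Log2 fold changes (edgeR) of the 8 tested genes in the 7 comparisons, with 95% confidence intervals that are not adjusted for multiple tests; red points are above 0 and blue points below. The only interval that leaves out 0 is that of Nfatc2 in NX JV101 against NX saline cells, from 0.02 to 0.85.

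Trpc1 forms channels with other TRPC proteins and has been tied to stretch and store-operated calcium entry. It had 4.46, 3.23 and 4.59 CPM in NX JV101, 3.74, 3.56 and 3.47 CPM in NX saline, 3.88, 3.80 and 5.15 CPM in sham JV101, and 6.14, 4.39 and 4.27 CPM in sham saline cells (replicates 1 to 3, as in all such lists). The 3 NX saline libraries were close together and all lay below the 3 sham saline libraries, while the groups overlapped in the other comparisons tested. One member of 8 was separated in this way between NX saline and sham saline cells, as were 10.8% of all genes tested. Its log2 fold change between them was −0.46 (SE 0.23, 95% interval −0.96 to 0.03), which did not pass edgeR's test (adjusted p = 0.994). It ranged from −0.56 to −0.27 when single libraries were left out, the smaller size without sham saline replicate 1. Averaged over both injections the nephrectomy difference was −0.26 (SE 0.16, edgeR adjusted p = 0.860), and the interaction was 0.39 (SE 0.32, edgeR adjusted p = 1.00).

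Trpc1 was lower in libraries with more macrophage marker message. Over the 12 libraries its level and the macrophage marker score, the mean log2 level of 8 markers relative to their means, had a Pearson r of −0.79 (permutation p = 0.00266, adjusted p = 0.0395 over 104 relations; r = −0.71 without the 2 most distant libraries) and a Spearman rho of −0.71 (permutation p = 0.0123, adjusted p = 0.0911). With the fibroblast score r was −0.77 (permutation p = 0.00391, adjusted p = 0.0508) and rho −0.75 (permutation p = 0.00701, adjusted p = 0.0663). Between NX saline and sham saline cells the 8 fibroblast markers were all on the positive side, with a median log2 fold change of 0.52, as were the 8 macrophage markers, with a median of 0.32, and none of these 16 passed the test. All 8 endothelial, 8 smooth muscle and pericyte and 6 mesothelial markers were positive too, with medians of 0.60, 0.39 and 0.38. All 7 atrial and 6 of 8 ventricular cardiomyocyte markers were negative. Summed, the fibroblast markers ran from 479 to 728 CPM in NX saline and from 331 to 621 CPM in sham saline libraries. The 6 neutrophil markers summed to 9.32 to 24.4 CPM in NX saline and 4.98 to 6.12 CPM in sham saline libraries, without overlap. What part these have in the lower Trpc1 values was not tested. In RNA from many cells, a smaller share of a cell type and less message per cell cannot be told apart.

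Trpc6, the receptor-operated channel, was at the edge of detection. The counts were 1, 10 and 3 in NX JV101, 0, 0 and 0 in NX saline, 7, 2 and 0 in sham JV101, and 1, 0 and 3 in sham saline libraries, which is 27 in all. Most libraries held a few counts at most, and 5 of the 12 held 0. Summed over its libraries the NX JV101 group had 0.125 CPM (exact 95% Poisson interval 0.0684 to 0.210). That was 3.54 times the 0.0354 CPM that a floor of 3 counts over the NX saline group would give. The floor was chosen here, so the ratio is not a lower limit of the difference. Without NX JV101 replicate 2, which gave 10 of the 14 counts, 4 counts remained and this ratio was 1.63. That library and sham JV101 replicate 1, with 7 counts, had the highest fibroblast scores of the 12 libraries, 1.09 and 0.97. They also had the lowest ventricular cardiomyocyte scores, −0.56 and −0.49. What part cell types have in the Trpc6 counts was not tested. Sham JV101 had 0.0977 CPM (0.0447 to 0.186) and sham saline 0.0451 CPM (0.0123 to 0.115). The interval of NX saline, 0 to 0.0435 CPM, lay below those of NX JV101 and sham JV101 and overlapped that of sham saline. These intervals cover counting error only and not the spread between animals, and Trpc4, a channel at a similar level, was likewise at 0 in the 3 NX saline libraries, with 10, 12 and 11 counts in the NX JV101, sham JV101 and sham saline groups.

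Ppp3ca and Ppp3cb, which carry the phosphatase activity, varied less between libraries than most genes. Ppp3ca had 39.2, 43.6 and 42.9 CPM in NX JV101, 34.4, 40.3 and 37.6 CPM in NX saline, 40.4, 34.5 and 42.1 CPM in sham JV101, and 38.8, 36.1 and 35.5 CPM in sham saline cells. The groups overlapped in every comparison tested. Of the tested differences between groups that in NX JV101 against NX saline cells was the largest, with a log2 fold change of 0.16 (SE 0.12). Averaged over surgeries the JV101 difference of Ppp3ca was 0.12 (SE 0.087, 95% interval −0.07 to 0.31). Its coefficient of variation over the 12 libraries was 8.24%, and only 3.56% of the genes tested had a lower one.

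Ppp3cb had 47.3, 41.2 and 42.6 CPM in NX JV101, 37.8, 49.0 and 43.1 CPM in NX saline, 36.4, 45.3 and 51.2 CPM in sham JV101, and 43.9, 47.1 and 49.1 CPM in sham saline cells. All groups overlapped, and every fold change was smaller than its SE. The confidence intervals of the 6 comparisons between groups lay within −0.44 and 0.34 on the log2 scale. Its coefficient of variation was 10.2%, below which lay 9.26% of the genes tested. The 2 subunits did not follow each other, with r = −0.0046 over the 12 libraries, which share depth and preparation.

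**Figure D4:**
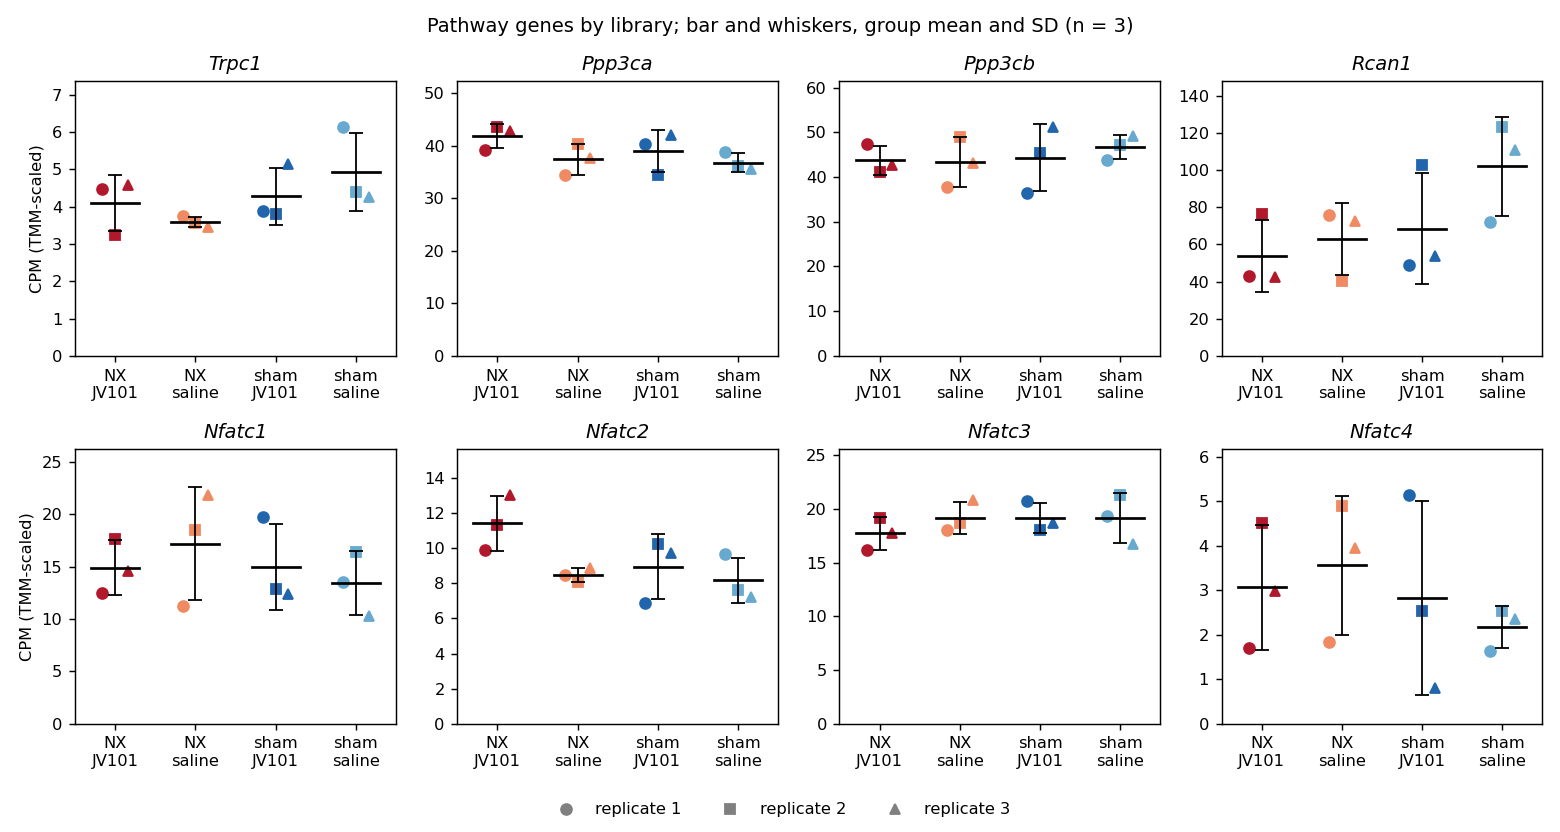
TMM-scaled CPM (axes from 0) of the 8 tested genes in each library; circles, squares and triangles are replicates 1, 2 and 3, the bar is the group mean and the whiskers its SD (n = 3). Rcan1 spreads from 40.4 to 123 CPM and Nfatc4 from 0.809 to 5.14 CPM, while Ppp3ca stays between 34.4 and 43.6 CPM.

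Rcan1 had its highest mean in sham saline cells and lower means in the other 3 groups, differences that did not pass the test. The values were 42.9, 76.4 and 42.2 CPM in NX JV101, 75.8, 40.4 and 72.5 CPM in NX saline, 48.7, 103 and 53.8 CPM in sham JV101, and 72.1, 123 and 111 CPM in sham saline cells. A library near 40 CPM and one above 75 CPM occurred in both nephrectomy groups, and the sham saline libraries overlapped with those of each other group through replicate 1. Group means were 53.8 ± 19.5 CPM in NX JV101, 62.9 ± 19.5 CPM in NX saline, 68.4 ± 29.8 CPM in sham JV101 and 102 ± 26.6 CPM in sham saline cells (SD, n = 3 each).

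The log2 fold change of Rcan1 was −0.70 (SE 0.36, 95% interval −1.48 to 0.08) in NX saline against sham saline cells, with an adjusted p of 0.994 in edgeR. In sham JV101 against sham saline cells it was −0.58 (SE 0.36, edgeR adjusted p = 1.00), a comparison that uses the same sham saline libraries. Averaged over injections, nephrectomy gave −0.52 (SE 0.25, 95% interval −1.07 to 0.03) and an adjusted p of 0.860 in edgeR. The averaged JV101 difference was −0.40 (SE 0.25, edgeR adjusted p = 1.00). Leaving out single libraries moved the averaged nephrectomy difference between −0.69 (NX JV101 replicate 2 left out) and −0.31 (sham JV101 replicate 2 left out), with an unadjusted p under 0.05 in 4 of 12 such fits. The differences of the other 2 pairs of groups and the interaction were within 1 SE of 0.

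By the measure of likeness used here, Pearson's r of log2 CPM over the 12 libraries among 12050 genes with a mean of at least 1 CPM, the genes most like Rcan1 were Hspa5 (r = 0.93), Fem1c (r = 0.93) and Hspa8 (r = 0.91). Hspa5 encodes the chaperone BiP of the endoplasmic reticulum and Hspa8 the constitutive cytosolic chaperone Hsc70. Spearman's rho for the 3 pairs was 0.88, 0.91 and 0.89, and without the 2 most distant libraries r was 0.91, 0.92 and 0.91. These values come from the libraries on which the 3 genes were picked, so they are no independent check. Hspa5 reached 635 and 505 CPM in sham saline replicates 2 and 3, the libraries in which Rcan1 was highest, and 291 CPM in NX JV101 replicate 1, where Rcan1 was near its lowest. None of the 12 marker lists and not the mitochondrial share was related to Rcan1 at an adjusted p under 0.05; the largest r was 0.61 for the T cell markers (permutation p = 0.0347, adjusted p = 0.203), and r was 0.30 without the 2 most distant libraries. Spearman's rho for the T cell markers was 0.52 (permutation p = 0.0846, adjusted p = 0.267). That score used only the 3 of 7 listed T cell markers that passed the filter on low counts. The 6 T cell markers in the table summed to at most 3.58 CPM in any library.

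Nfatc2 is the NFAT gene best known from T cells and is also present in heart muscle. It had 9.91, 11.3 and 13.0 CPM in NX JV101, 8.46, 8.05 and 8.88 CPM in NX saline, 6.87, 10.3 and 9.73 CPM in sham JV101, and 9.65, 7.62 and 7.21 CPM in sham saline cells. All 3 NX JV101 libraries lay above all 3 NX saline libraries, and the groups overlapped in the other comparisons tested. One member of 8 was separated in NX JV101 against NX saline cells, as were 8.22% of all genes; 0 of 8 were in sham JV101 against sham saline cells (3.82% of all genes) and 0 of 8 in NX JV101 against sham JV101 cells (5.11%).

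The log2 fold change of Nfatc2 in NX JV101 against NX saline cells was 0.43 (SE 0.19, 95% interval 0.02 to 0.85), with an unadjusted p of 0.0415 and an adjusted p of 1.00 in edgeR. Leaving out single libraries gave 0.33 to 0.53, with an unadjusted p under 0.05 in 1 of 6 fits. In NX JV101 against sham JV101 cells it was 0.35 (SE 0.19, edgeR adjusted p = 0.999), and 0.19 with sham JV101 replicate 1 left out. The averaged JV101 difference was 0.28 (SE 0.13, edgeR adjusted p = 1.00) and the averaged nephrectomy difference 0.20 (SE 0.13). The interaction of 0.30 had an SE of 0.27, so a JV101 difference of another size after nephrectomy than after sham surgery was not shown.

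The same comparison separated marker lists too. The atrial cardiomyocyte score, from 7 markers, was 1.10 to 1.23 in the NX JV101 libraries and −0.47 to −0.43 in the NX saline libraries, and the summed atrial markers ran from 977 to 1622 CPM in NX JV101 and from 291 to 555 CPM in NX saline libraries. The 6 mesothelial markers ran the other way, with 33.4 to 38.9 CPM in NX JV101 and 53.5 to 110.8 CPM in NX saline libraries, and so did the 5 B cell markers in the table, with 0.723 to 1.84 CPM in NX JV101 and 2.85 to 14.4 CPM in NX saline libraries. Of these 5 of 6 and 4 of 5 had an unadjusted p under 0.05 in edgeR, all of them lower, and none passed after adjustment. Neutrophil and T cell scores did not overlap either, both lower in NX JV101 libraries, while the summed markers of both lists did overlap. For neutrophil markers the sum in NX JV101 replicate 2 lay above that in NX saline replicate 3. The 6 T cell markers in the table summed to 0.573 to 1.81 CPM in NX JV101 and 0.951 to 3.09 CPM in NX saline libraries. The T cell score used only the 3 of these markers that passed the filter on low counts. Over all 12 libraries Nfatc2 had r = 0.31 with the atrial score (permutation p = 0.317, adjusted p = 0.558; r = 0.49 without the 2 most distant libraries), rho = 0.26 (permutation p = 0.417, adjusted p = 0.576), and r = −0.73 with the T cell score (permutation p = 0.00742, adjusted p = 0.0643; r = −0.58 without the 2 most distant libraries), rho = −0.73 (permutation p = 0.00943, adjusted p = 0.0754). The part of these lists in the Nfatc2 difference was not tested. The genes most like Nfatc2 were Rcsd1, Vps37b and Dact3, with r of 0.80 each, the weakest best match of the 8 genes.

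Nfatc1, which in the heart is best known from the endocardium and valve formation, had 12.5, 17.7 and 14.6 CPM in NX JV101, 11.3, 18.5 and 21.9 CPM in NX saline, 19.7, 12.9 and 12.4 CPM in sham JV101, and 13.6, 16.4 and 10.3 CPM in sham saline cells. Every group held a library below 14 CPM and one above 16 CPM, and all overlapped. In NX saline against sham saline cells its log2 fold change was 0.36 (SE 0.27, 95% interval −0.24 to 0.96). It was 0.17 without NX saline replicate 3, and 0.59 when replicate 1 of that group was left out instead. The other differences were within 1 SE of 0. Across libraries Nfatc1 was related to the endothelial score by rank, and just missed the threshold by Pearson's r, with r = 0.75 (permutation p = 0.00448, adjusted p = 0.0518; r = 0.77 without the 2 most distant libraries) and rho = 0.87 (permutation p = 0.000380, adjusted p = 0.0132). The ventricular cardiomyocyte score ran the other way, with r = −0.75 (permutation p = 0.00501, adjusted p = 0.0521; r = −0.72 without the 2 most distant libraries) and rho = −0.78 (permutation p = 0.00374, adjusted p = 0.0486). The summed 8 endothelial markers, none at 0, ran from 801 to 1518 CPM in NX JV101, 510 to 1628 in NX saline, 286 to 1452 in sham JV101 and 590 to 892 in sham saline libraries. The genes most like it were Foxo1 (r = 0.98), a FoxO transcription factor, Arhgef1 (r = 0.97) and Pkmyt1 (r = 0.96).

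Nfatc3, an NFAT gene needed for calcineurin-driven hypertrophy in mice, was as steady as the calcineurin subunits. It had 16.2, 19.2 and 17.8 CPM in NX JV101, 18.0, 18.7 and 20.9 CPM in NX saline, 20.7, 18.0 and 18.7 CPM in sham JV101, and 19.4, 21.3 and 16.7 CPM in sham saline cells. All groups overlapped, every fold change was within 1 SE of 0, and the confidence intervals between groups lay within −0.41 and 0.30 on the log2 scale. Its coefficient of variation of 8.51% had 4.18% of the tested genes below it. Nfatc3 is the only one of the 9 genes whose exons overlap those of another gene in GENCODE vM21, by 219 bases with Esrp2 on the opposite strand, and since the strand setting is not given in the sources used here, reads of that stretch cannot be told apart. Most like it were Pofut1 (r = 0.94), Mkrn1 (r = 0.92) and Dhx16 (r = 0.91).

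Nfatc4 was the most variable of the 8 genes and had the fewest counts among them, 27 to 191 per library. It had 1.70, 4.50 and 2.99 CPM in NX JV101, 1.84, 4.89 and 3.95 CPM in NX saline, 5.14, 2.53 and 0.809 CPM in sham JV101, and 1.64, 2.54 and 2.35 CPM in sham saline cells. The sham JV101 group held both the highest and the lowest library, 6.36-fold apart, while the largest fold between group means was 1.64. Its log2 fold change was 0.72 (SE 0.59, 95% interval −0.57 to 2.00) in NX saline against sham saline cells and 0.42 (SE 0.41) for nephrectomy averaged over injections, and no other difference exceeded its SE. The first was 0.41 without NX saline replicate 2, and 1.03 when replicate 1 of that group was left out instead. The second was 0.19 without sham JV101 replicate 3, and 0.81 with that group's replicate 1 left out.

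Across libraries Nfatc4 followed several lists of non-myocyte markers, the fibroblast markers most closely. With these r was 0.94 and rho 0.91 (permutation p = 4e-05 and 0.000150, adjusted p = 0.00208 and 0.0114, over 104 relations). Without the 2 libraries farthest from the median r was 0.89. The macrophage score gave r = 0.92 (permutation p = 2e-05, adjusted p = 0.00208) and rho = 0.89 (permutation p = 0.000220, adjusted p = 0.0114). The endothelial score gave r = 0.87 (permutation p = 0.000370, adjusted p = 0.0123) and rho = 0.80 (permutation p = 0.00211, adjusted p = 0.0349), and the ventricular cardiomyocyte score ran the other way with r = −0.84 (permutation p = 0.000590, adjusted p = 0.0123) and rho = −0.83 (permutation p = 0.00154, adjusted p = 0.0320). Without the 2 most distant libraries these 3 values of r were 0.85, 0.75 and −0.82. The smooth muscle and pericyte score gave r = 0.85 (permutation p = 0.000540, adjusted p = 0.0123) and rho = 0.80 (permutation p = 0.00235, adjusted p = 0.0349). The endocardial score gave r = 0.81 (permutation p = 0.00152, adjusted p = 0.0263) and rho = 0.85 (permutation p = 0.000820, adjusted p = 0.0213). Without the 2 most distant libraries r was 0.67 and 0.69 for these lists. The genes most like Nfatc4 were Kirrel, Nid1 and Snai2, all with r of 0.98; Nid1 encodes the basement membrane protein nidogen and Snai2 the transcription factor Slug.

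**Figure D5:**
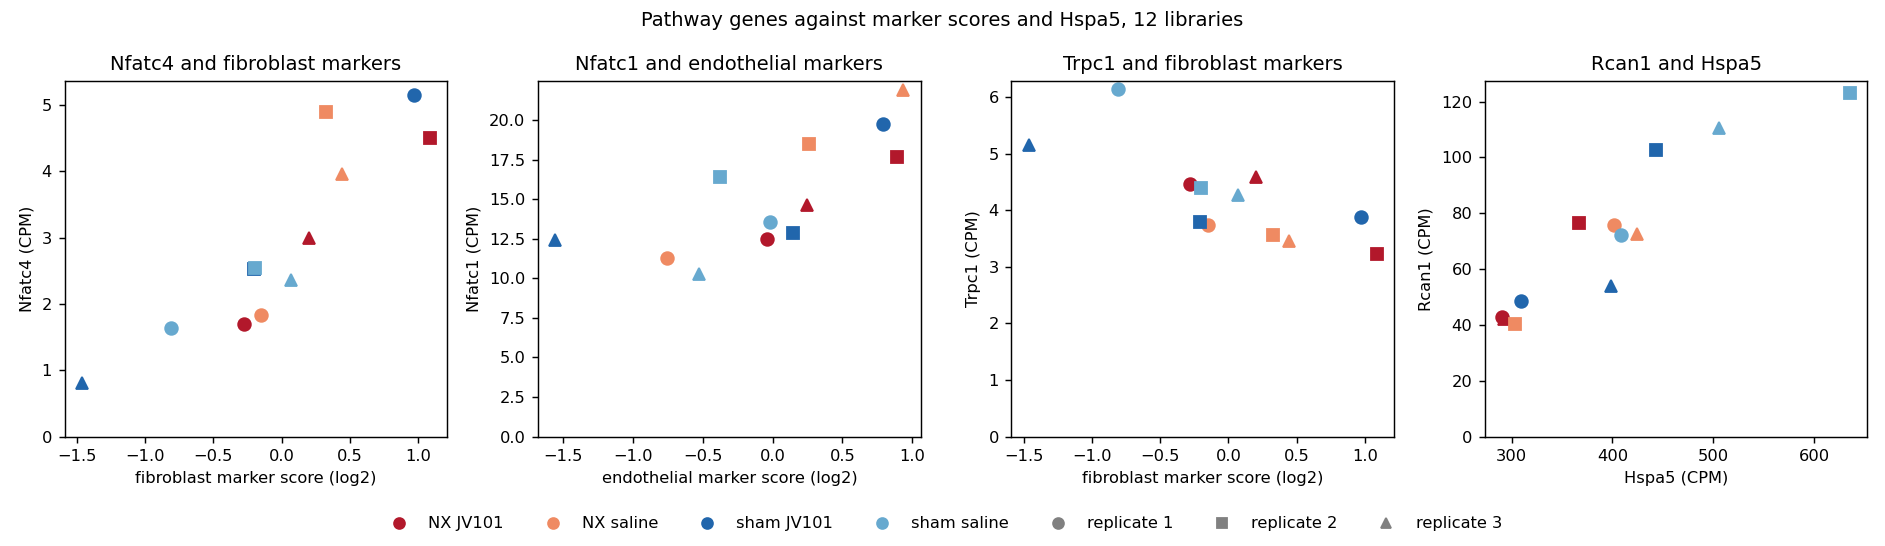
Nfatc4, Nfatc1, Trpc1 and Rcan1 (CPM, vertical axes from 0) against the fibroblast score, the endothelial score, the fibroblast score (log2 units relative to the mean library) and Hspa5 (CPM) in 12 libraries; colours are groups and shapes are replicates. Nfatc4 climbs with the fibroblast score over all groups (r = 0.94), Trpc1 runs the other way (r = −0.77), and Rcan1 climbs with Hspa5 (r = 0.93). Hspa5 was picked for its high r with Rcan1 in these same libraries.

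Among themselves the 8 genes formed no common pattern. Of the 28 pairs the highest Pearson's r over libraries were 0.76 for Nfatc1 with Nfatc3 and 0.74 for Nfatc1 with Nfatc4, and the lowest were −0.71 for Trpc1 with Nfatc4 and −0.68 for Ppp3ca with Rcan1. Rcan1 had r between −0.27 and 0.20 with the 4 NFAT genes. These values come from 12 libraries that share preparation and differ in depth and in cell type markers.

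The wider pathway was read from a list of 60 further genes in 9 groups, from channels to hypertrophy readouts, of which 58 were in the table and 54 were tested. None passed an adjusted p of 0.05 in any comparison (edgeR). The number with an unadjusted p under 0.05 was 3 of 54 in NX saline against sham saline cells (3.64% of all genes), 0 in NX JV101 against NX saline cells (2.39%), 2 in sham JV101 against sham saline cells (1.7%) and 1 in NX JV101 against sham JV101 cells (2.07%). It was 2 in the averaged effect of nephrectomy (4.36%), 2 in that of JV101 (2.28%) and 1 in the interaction (1.78%), so the counts were near the shares of all genes. The median log2 fold change of the 54 was 0.02 in NX saline against sham saline cells, where that of all genes was 0.02, and −0.03 in NX JV101 against NX saline cells, where that of all genes was 0.01.

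The kinases and the exportin that return NFAT to the cytoplasm leaned to the negative side. In NX saline against sham saline cells 9 of 10 lay below 0, at a median log2 fold change of −0.11, where 52.9% of all genes lay above 0. The lean was not limited to nephrectomy: 8 of 10 lay below 0 in NX JV101 against NX saline cells, 9 of 10 in sham JV101 against sham saline cells and 8 of 10 in NX JV101 against sham JV101 cells, where 51.9%, 55.6% and 50.6% of all genes lay above 0. In the averaged nephrectomy effect all 10 were below 0, with a median of −0.15 and a range from −0.18 to −0.01, where 51.6% of all genes lay above 0 and their median was 0.01. None of these 10 had an unadjusted p under 0.05 there, and the smallest was 0.111 (edgeR). For JV101 averaged over surgeries 7 of 10 lay below 0, where 55.0% of all genes lay above 0. In the interaction 6 of 10 lay above 0, where 46.0% of all genes did. The comparisons share libraries, so these leans are not independent of each other, and this was 1 of 9 groups of genes looked at. The 5 store-operated entry genes, Stim1, Stim2, Orai1, Orai2 and Orai3, were all positive in NX saline against sham saline cells, with a median of 0.17 and a smallest unadjusted p of 0.277 in edgeR, where 52.9% of all genes were positive. Only 2 of the 5 were positive in NX JV101 against sham JV101 cells and 2 of 5 in NX JV101 against NX saline cells, at a median of −0.03 in both. All 3 calmodulin genes lay within 0.19 of 0 on the log2 scale in the 6 comparisons between groups.

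Among the readouts of hypertrophy, the actin gene Acta1, whose fetal-type expression returns in stressed hearts, gave the smallest p. It had 263, 255 and 291 CPM in sham JV101 and 130, 75.0 and 123 CPM in sham saline libraries, with all sham JV101 libraries above all sham saline libraries. Between these groups the log2 fold change was 1.30 (SE 0.42), with an unadjusted p of 0.00916 and an adjusted p of 1.00 in edgeR. NX saline libraries had 298, 299 and 71.7 CPM and overlapped with sham saline, at a log2 fold change of 1.03 (SE 0.41, edgeR adjusted p = 0.994). NX JV101 libraries had 195, 242 and 238 CPM, and the interaction of Acta1 was −1.29 (SE 0.58, edgeR adjusted p = 1.00).

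Xirp1, which encodes an actin-binding protein of the intercalated disc, had 153, 138 and 133 CPM in NX JV101, 181, 157 and 210 CPM in NX saline, 106, 271 and 188 CPM in sham JV101, and 319, 257 and 341 CPM in sham saline libraries. All NX saline libraries lay below all sham saline libraries. There the log2 fold change was −0.74 (SE 0.27, edgeR adjusted p = 0.994), and averaged over injections it was −0.58 (SE 0.19, edgeR adjusted p = 0.860). The lower Xirp1 values were not limited to nephrectomy. In sham JV101 against sham saline cells its log2 fold change was −0.70, with overlapping libraries. Averaged over surgeries its JV101 difference was −0.54. All of these differences use the same sham saline libraries. Akap1, a mitochondrial anchor for kinases and calcineurin, had an averaged nephrectomy difference of −0.45 (SE 0.15, edgeR adjusted p = 0.860).

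Plcb1, a phospholipase that acts between Gq and the channels, had 7.39, 9.73 and 8.33 CPM in NX JV101 and 5.31, 5.47 and 1.65 CPM in sham JV101 libraries, which did not overlap. Its log2 fold change was 1.04 (SE 0.45, edgeR adjusted p = 0.999), 0.66 without sham JV101 replicate 3 and 0.29 with limma on log2(FPKM + 1). Averaged over injections its nephrectomy difference was 0.69 (SE 0.32, edgeR adjusted p = 0.860). Of the Gq-coupled receptors, the endothelin receptor gene Ednra had a log2 fold change of −0.45 (SE 0.24, edgeR adjusted p = 0.999) in NX JV101 against sham JV101 cells, and the adrenergic receptor gene Adra1b one of −0.51 (SE 0.27, edgeR adjusted p = 1.00) in sham JV101 against sham saline cells. Leaving out single libraries gave −0.70 to −0.22 for Ednra and −0.77 to −0.24 for Adra1b. Ppp3cc had −0.25 (SE 0.16, edgeR adjusted p = 1.00) in NX JV101 against NX saline cells. The natriuretic peptide gene Nppa had 632, 946 and 627 CPM in NX JV101 and 352, 228 and 161 CPM in NX saline libraries, a log2 fold change of 1.57 with an SE of 1.08 (edgeR adjusted p = 1.00). Ankrd1, a stress-induced ankyrin repeat gene of the sarcomere, had a log2 fold change of 0.54 (SE 0.35, edgeR adjusted p = 1.00) between the same groups, whose libraries overlapped. Sham saline libraries alone ran from 24.7 to 1332 CPM for Nppa, which is also an atrial marker, and the atrial scores given above did not overlap between NX JV101 and NX saline libraries; their part in the Nppa difference was not tested. Of the other readouts Nppb and Myh7 had an unadjusted p above 0.34 in every comparison, with log2 fold changes of Myh7 between −0.61 and 0.27.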

How the data were processed

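Per the labels, RNA was purified with an RNeasy kit and 1.3 µg went into each polyA library (VAHTS Universal V6). Per the submitters' processing notes fastp, HISAT2, HTSeq and GRCm39 were used; the tools' versions, the gene models and the strandedness were not given in the sources used here. Counts and FPKM were deposited by the authors; the lengths implied by both were the same in every library (largest relative difference 1.5e-08 over 9643 genes). FPKM were taken on all counts, mitochondrial ones included.

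Genes were kept with filterByExpr (minimum count 10, total 15). Deposited counts were TMM-scaled and fitted with edgeR's quasi-likelihood model over 12 libraries and 4 groups. There were 7 two-sided contrasts, with Benjamini-Hochberg adjustment over 14412 genes. The fit was also run on simulated data, and the share of planted changes that it called is not reported here. The members and gene lists were chosen with earlier results of these data known. All members are named; of the pathway list, the 3 genes with the smallest p in each comparison, and other genes as counts or ranges, except Ppp3r1, Ppp3r2, Rcan2, Trpc4, Nppb and Myh7, named as relatives or readouts; some genes of the list are not reported here. Scores are mean log2 CPM (prior count 2) relative to each marker's mean, over the markers that passed the filter. Correlations used 100000 permutations, 2-sided. Trpc6 intervals cover counting error only. Fits ran in edgeR 4.0.16, DESeq2 1.42.0 and limma 3.58.1 under R 4.3.3.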

Additional observations from a re-analysis of the deposited data

How the results depend on the processing

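No member passed an adjusted p of 0.05 under RLE or upper-quartile factors, without mitochondrial genes, without a filter, with a filter of 5 CPM in 3 libraries, in fits of only the groups compared, with DESeq2, with limma on log2 FPKM (pseudocount 1 or 0.1, or rescaled to nuclear genes and 0.1, the last added after the data were seen), or without any 1 library. The 17 member differences over 1 SE kept their direction in all 334 alternative values (smallest adjusted p 0.255), while of 738 values for differences within 1 SE 92 changed sign. The 17 were picked by their size in the main fit, and the alternatives reuse the same libraries. Their kept direction is therefore no independent check. Of 402 values for the named pathway genes 2 changed sign: Ppp3cc in NX JV101 against NX saline cells was −0.25 with edgeR, and 0.064 and 0.089 with limma on FPKM with pseudocounts of 1 and 0.1. FPKM moved the median of all genes in that comparison to 0.21 and 0.32. The order of mean levels was the same under all alternatives tried. Same-numbered replicates of different groups deviated from their group means with r of −0.50 to 0.25 over 18 pairs. Differently numbered ones had −0.54 to 0.55 over 36 pairs. Whether equal numbers share a batch cannot be told from this. With the number as a replicate block 0 of 8 members passed in each comparison. In that fit Rcan1 was −0.61 in NX saline against sham saline cells, and Nfatc2 was 0.43 in NX JV101 against NX saline cells. Depth limited Trpc6 and Trpc4, and 3 libraries a group left a median SE of 0.21 for the members' log2 fold changes in NX saline against sham saline cells.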
